A study of Homo sapiens with 6 samples.

Results

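The antiviral effector genes MX1, MX2, RSAD2, CMPK2, IFI6, IFI27, IFI35, IFI44, IFI44L and ISG20 were examined in HK-2 cells, an established human line derived from the kidney proximal tubule and immortalised with papillomavirus genes. They are 10 of the 26899 genes listed in the deposited counts, and were chosen by symbol as interferon-stimulated effectors that lie outside the OAS, IFIT and IFITM families. Their difference between the libraries labelled shANXA2 and those labelled shCtrl was known when they were chosen, so every value of that difference given below for these genes is a description and was not tested. The series consisted of 6 poly(A) RNA-seq libraries, 3 labelled shCtrl and 3 labelled shANXA2, the latter meant to reduce ANXA2, the gene of the phospholipid-binding protein annexin A2, with a short hairpin RNA. The control titles read wild type while their descriptions read shCtrl, so it is not settled whether the control cells carried a hairpin. Lipid transfection of plasmid is listed for all 6 samples, and no interferon, virus or other agent is named for either group. Whether a line was 1 clone or a pool, the hairpin's target sequence, and whether replicates were separate cultures were not stated, so the p-values below measure only the spread between these libraries, which may be technical.

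Cells that sense a virus or foreign nucleic acid release type I or type III interferons. These bind their receptors, activate the kinases JAK1 and TYK2, and lead to transcription factors that bind the interferon-stimulated response element (ISRE) in front of target genes. The products of such genes block viruses at different steps. MX1 and MX2 are dynamin-like GTPases, of which MX1 acts in the cytoplasm on viruses such as influenza and MX2 near nuclear pores on HIV-1. RSAD2 encodes viperin, a radical SAM enzyme that converts CTP into a chain-terminating nucleotide, and its neighbour CMPK2 encodes a mitochondrial nucleotide kinase. IFI6 and IFI27 encode small hydrophobic membrane proteins of 1 family, IFI35 encodes a cytosolic protein that pairs with NMI, IFI44 and IFI44L encode related cytosolic proteins, and ISG20 encodes an exonuclease that degrades single-stranded RNA.

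In order to see whether these genes share sequence in front of their start sites, promoter windows of RefSeq (build GRCh38.p14, 250 bases before to 50 bases after each annotated start) were searched on both strands for the ISRE core, which is GAAA and GAAA separated by any 2 bases, or TTTC and TTTC so separated when read on the other strand. Entries were matched for 9 of the 10 genes, with 16 windows. The ISRE core was found in 7 of the 9 genes (77.8%), namely MX1, RSAD2, IFI6, IFI27, IFI44, IFI44L and ISG20, against 4.37% of all 27167 genes with a window. At the level of windows it was found in 10 of 16 (62.5%) against 3.57% of all 34943. Since the genes were chosen as interferon-stimulated, a high share was likely from the choice alone. These shares are a description and were not tested. The windows printed below are shown because they hold the most matches or belong to the genes whose levels are described next. Capitals mark the ISRE core, and positions are counted from 1 at the annotated start, with no position 0. IFI6 held 3 matches within 93 bases on the minus strand, at chr1:27672266-27672358, starting at positions -156, -115 and -93.
IFI6: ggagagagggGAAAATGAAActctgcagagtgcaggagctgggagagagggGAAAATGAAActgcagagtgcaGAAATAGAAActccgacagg
IFI27 held 2 matches in opposite orientation at chr14:94110618-94110660 on the plus strand.
IFI27: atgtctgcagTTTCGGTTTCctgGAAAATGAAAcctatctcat
Each window of the other genes held at most 1 match, except that of IFI44L, in which the same 30 bases occurred at chr1:78620274-78620303 and again at chr1:78620365-78620394. The sites below lie at chr1:78649761-78649790 for IFI44, chr15:88638937-88638966 for ISG20, chr21:41420559-41420588 for MX1 and chr2:6877622-6877651 for RSAD2, all on the plus strand.
IFI44L: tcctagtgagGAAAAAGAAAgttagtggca
IFI44: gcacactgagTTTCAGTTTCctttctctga
ISG20: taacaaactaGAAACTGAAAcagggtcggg
MX1: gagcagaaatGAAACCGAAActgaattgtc
RSAD2: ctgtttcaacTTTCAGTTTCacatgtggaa

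The MX1 site printed lies just after its first annotated start, at position 12, whereas the sites of the other 6 genes lie before the start of their own window. The RSAD2 site belongs to its second annotated start, and the window at its first start held no core. The printed stretches of ISG20, MX1 and RSAD2 overlap exons of their own genes, as does the stretch spanning both IFI44L sites. A further match in MX1, at position -196 of the third annotated start, lies in another window. IFI44 and RSAD2 share the reverse-oriented core TTTCAGTTTC, which ISG20 holds in forward orientation as GAAACTGAAA. IFI6 and IFI27 share the forward core GAAAATGAAA. The printed MX1 core GAAACCGAAA is the IFI27 core TTTCGGTTTC read on the other strand. Windows with at least 2 matches made up 4 of the 16 (25%), against 0.26% of all windows. They belong to IFI6, IFI44L and both starts of IFI27. The gamma-activated site TTCNNNGAA, a pattern known from interferon gamma responses, was found in IFI27, IFI35 and MX1, 33.3% of the 9 genes against 9.37% of all genes. In IFI27 it spans the gap between the 2 ISRE cores and overlaps both, and in the third MX1 window it overlaps the ISRE core by sharing its last bases. CMPK2, with 3 windows, and IFI35 held no ISRE core in these windows. With the 250 bases before the start alone the count remained 7 genes, and with 1 mismatch to the fixed letters it was 9 of 9, where 37.8% of all genes also matched. Of 23 other antiviral effectors with a window 16 (69.6%) held the core. Among 11 relatives and partners of the 10 proteins, such as the dynamins, 1 (9.09%) held it.

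**Figure D1:**
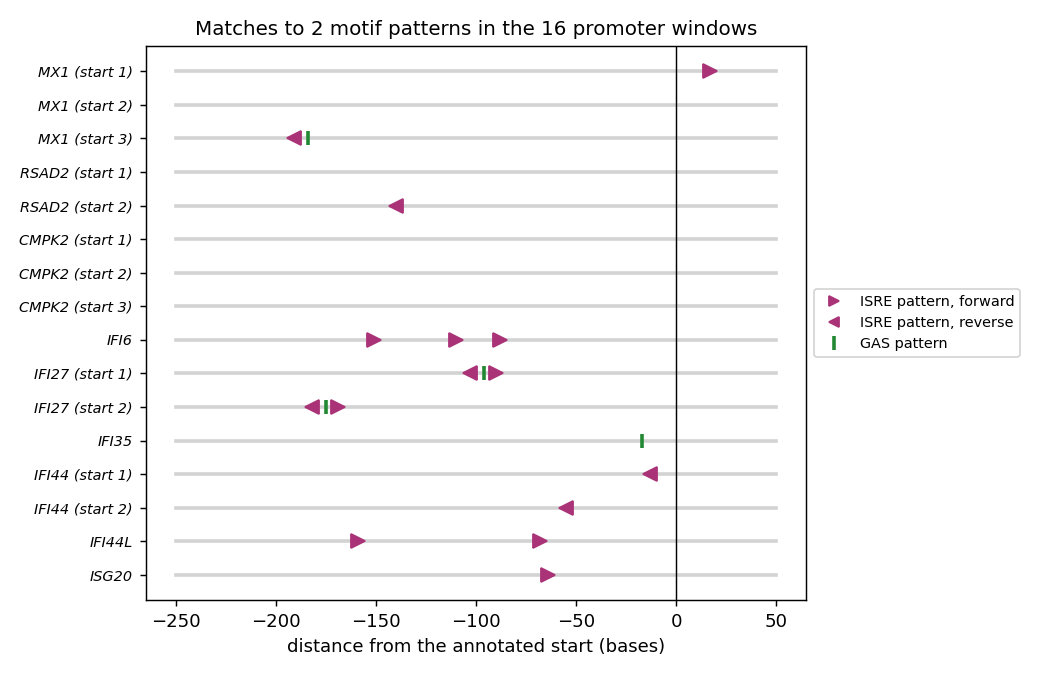
The 16 promoter windows of the 9 genes with an entry, 1 grey line for each annotated start, with distance from the start in bases on the horizontal axis (negative is upstream). Purple triangles mark ISRE cores, pointing right for the forward and left for the reverse orientation, and green ticks mark gamma-activated sites. IFI6 carries 3 cores, and none is drawn for CMPK2 or IFI35.

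Before the levels were compared, the libraries were checked. Depth was 24231267 to 34561675 counted reads. The targeted gene, ANXA2, had 762.04, 774.52 and 762.55 FPKM (fragments scaled for transcript length and library depth) in the libraries labelled shANXA2 and 827.07, 742.65 and 840.92 in those labelled shCtrl. Its log2 fold change was -0.05 (SE 0.075, 95% interval -0.22 to 0.11), slightly below 0 and not past the threshold, with an adjusted p of 0.848 in edgeR's quasi-likelihood test with Benjamini-Hochberg adjustment. In an exact two-sided permutation test of its CPM p was 0.4, where 3 against 3 libraries cannot go below 0.1. A clear reduction of the target was thus not measured, and all directions below are between libraries by their labels. Control replicate 1, with 18861 detected genes, and shANXA2 replicate 3, with 19569, detected the fewest genes, the other 4 libraries having 20764 to 21819. Control replicate 1 also stood apart on the first principal component, at -61.8 where the other 5 libraries lay between -13.7 and 26.4. On the second component shANXA2 replicate 3 stood apart, at 41.3 where the others lay between -37.0 and 13.0. Mitochondrial genes took 6.50%, 6.01% and 6.17% of reads in shCtrl replicates 1, 2 and 3 and 5.58%, 5.60% and 5.26% in shANXA2, so this share separated the groups, and its part in the levels of the 10 genes was not tested. Of 16 proximal tubule markers 14 were listed, of which 4 (GGT1, PAX8, KRT18 and KRT8) reached 1 FPKM in every library and 9 stayed below 1 in every library. LRP2, which encodes the endocytic receptor megalin and defines this cell type, was at 0 throughout, and CUBN did not exceed 0.03 FPKM.

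All 10 genes passed the low-count filter and all 10 had higher estimates in the libraries labelled shANXA2, where 49% of the 15299 tested genes did. For 9 of the 10 the lowest shANXA2 library lay above the highest shCtrl library, which was so for 7.94% of all tested genes, with 7.7% separated in the lower direction. CMPK2 was the exception. The median log2 fold change of the 10 was 1.76, or 1.64 without MX2, against -0.01 over all tested genes. A log2 fold change of at least 1 was reached by 9 of them, all but IFI35, and by 1.45% of all genes. No gene of the table passed adjusted p 0.05 in edgeR's quasi-likelihood test (0%) or in limma-voom. DESeq2, which adjusted over 16467 genes, called 28 genes higher (0.17%) and 3 lower (0.0182%). At unadjusted p below 0.05 edgeR counted 590 genes higher (3.86%) and 661 lower (4.32%). The 10 genes supplied 9 of the 590 and 7 of the 28, counts that the choice of the genes had already fixed. In bulk RNA a larger number of responding cells and more RNA per cell cannot be told apart.

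**Figure D2:**
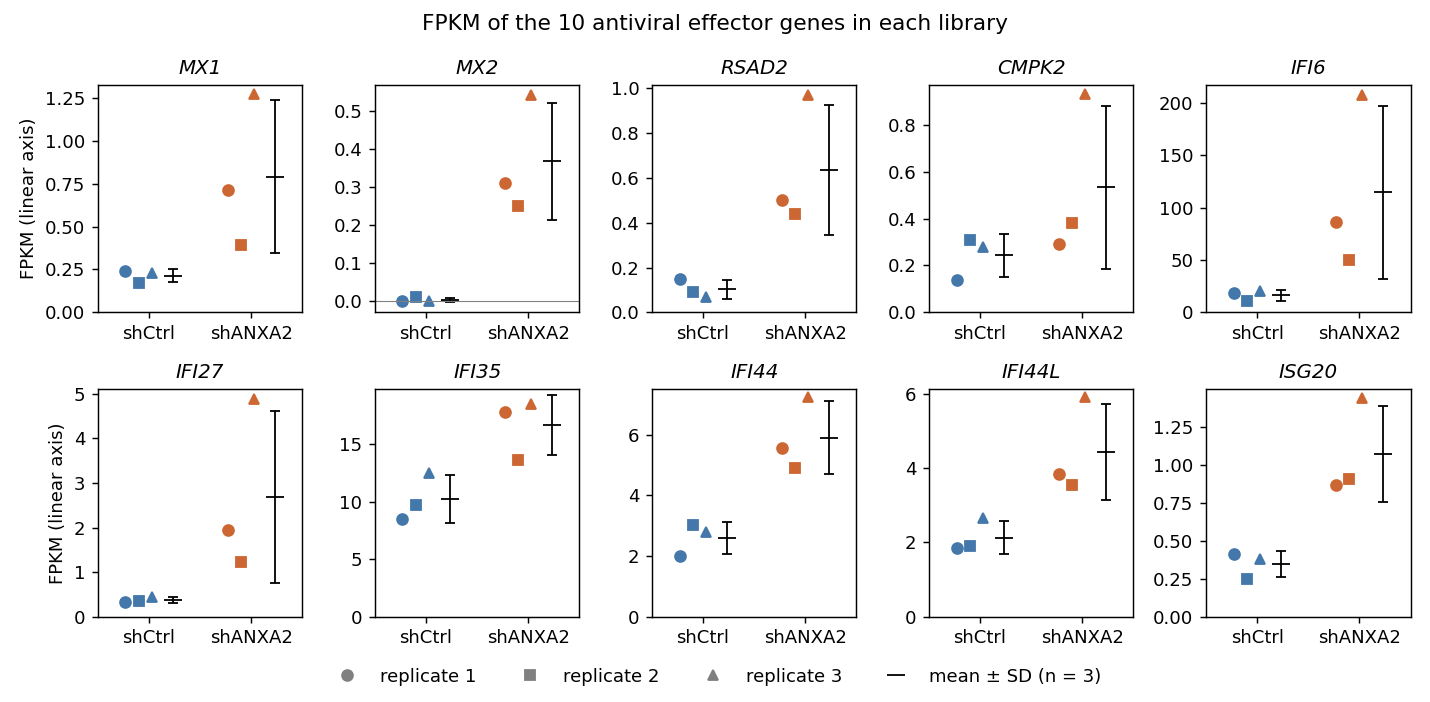
FPKM (linear axes, 1 scale per panel) of each of the 10 genes in each library, with blue points for shCtrl, orange points for shANXA2, the marker shape giving the replicate, and bars giving mean ± SD of 3 libraries. The groups overlap in the CMPK2 panel alone, and shANXA2 replicate 3 is the highest point in every panel.

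The MX GTPases were among the most weakly expressed of the set. MX1 (chr21:41420020-41470071, plus strand) had 25, 23 and 31 reads in shCtrl replicates 1, 2 and 3 and 104, 55 and 156 in shANXA2 replicates 1, 2 and 3. This corresponded to 0.213 ± 0.0379 FPKM in shCtrl and 0.79 ± 0.445 in shANXA2 (SD, n = 3), a log2 fold change of 1.89 (SE 0.452). The 2 groups did not overlap, but shANXA2 replicate 2 was only 1.63 times the highest control after depth correction. MX2 (chr21:41361999-41409393, plus strand), which lies 10626 bases before MX1, had 0, 1 and 0 reads in shCtrl and 34, 27 and 50 in shANXA2. Thus nearly all MX2 reads of the series, 111 of them, came from shANXA2 and 1 from shCtrl. The depth-corrected ratio was 102.0, with an exact 95% interval of 17.9 to 4065 that covers counting error only. The fitted log2 fold change of 6.27 (SE 0.891) rests on the prior count added to these controls, and in FPKM the gene reached no more than 0.54 in any library. The measured dynamins DNM1, DNM2, DNM3 and DNM1L had log2 fold changes of 0.26 (SE 0.103), 0.06 (SE 0.113), -0.05 (SE 0.219) and -0.41 (SE 0.142). DNM1 was higher and DNM1L lower without overlap, whereas the groups of DNM2 and DNM3 overlapped.

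RSAD2 and CMPK2 are a head-to-head pair whose 5′ ends overlap by 1079 bases on opposite strands. RSAD2 (chr2:6865557-6898239, plus strand) had 14, 11 and 8 reads in shCtrl and 64, 55 and 104 in shANXA2. Its level was 0.103 ± 0.0416 FPKM in shCtrl and 0.637 ± 0.290 in shANXA2, a log2 fold change of 2.62 (SE 0.488). Its lowest shANXA2 library lay 2.90 times above its highest control, the widest margin after that of MX2. CMPK2 (chr2:6840570-6866635, minus strand) had 14, 41 and 36 reads in shCtrl and 41, 52 and 111 in shANXA2. Its level was 0.243 ± 0.0907 FPKM in shCtrl and 0.533 ± 0.346 in shANXA2, a log2 fold change of 1.13 (SE 0.514, 95% interval -0.03 to 2.29). The groups overlapped, since shANXA2 replicate 1 fell at 0.958 times control replicate 2. Without shANXA2 replicate 3 the estimate for CMPK2 was 0.47, and without that library and control replicate 1 it was 0.20. Without control replicate 2, or without shANXA2 replicate 1, its groups no longer overlapped, where 10.8% and 10.2% of all genes were separated in this direction. The neighbours share 351 exonic bases, 8% of those of CMPK2 and 6.2% of those of RSAD2, and since the strand setting of the counting is not given, reads from that stretch cannot be assigned with certainty. CMPK1, which encodes the cytosolic kinase of the same reaction, was estimated lower (log2 fold change -0.39, SE 0.143, groups not overlapping), with an adjusted p of 0.605 in edgeR's quasi-likelihood test with Benjamini-Hochberg adjustment.

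IFI6 and IFI27, of the same protein family, gave estimates within 1 SE of that of RSAD2. IFI6 (chr1:27666064-27672212, minus strand) had 412, 307 and 574 reads in shCtrl and 2711, 1538 and 5462 in shANXA2. In FPKM the controls stood at 18.37, 10.41 and 20.17 and the shANXA2 libraries at 85.83, 50.38 and 207.1, which is the highest level of any of the 10 genes in every library. Its log2 fold change was 2.82 (SE 0.478), and its lowest shANXA2 value was 2.53 times its highest control. Among the 26803 genes with FPKM values IFI6 ranked 3071, 4639 and 2919 in the controls and 753, 1242 and 291 in shANXA2 replicates 1, 2 and 3. Its transcript model shares 216 exonic bases with the same-strand noncoding gene LINC02574, and 10.7% of its 100-base stretches also occur there. IFI27 (chr14:94104836-94116695, plus strand) had 7, 10 and 12 reads in shCtrl and 59, 36 and 123 in shANXA2. Its level was 0.373 ± 0.0586 FPKM in shCtrl and 2.69 ± 1.93 in shANXA2, a log2 fold change of 2.83 (SE 0.577). Both genes had their lowest shANXA2 value in replicate 2 and their highest in replicate 3, which was 4.06 times the lowest for IFI6 and 3.91 times for IFI27. The family relatives IFI27L1 and IFI27L2, which flank IFI27 on chromosome 14, had log2 fold changes of 0.24 (SE 0.280) and 0.07 (SE 0.230), with overlapping groups.

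The remaining 4 genes had log2 fold changes between 0.71 and 1.64. IFI35 (chr17:43006740-43014456, plus strand) had 274, 413 and 514 reads in shCtrl and 810, 601 and 702 in shANXA2. Its level was 10.24 ± 2.08 FPKM in shCtrl and 16.6 ± 2.60 in shANXA2, and its log2 fold change of 0.71 (SE 0.183) was the smallest of the 10. Its groups were separated by the narrowest margin, with the lowest shANXA2 library 1.10 times the highest control. NMI, its binding partner, had 18.85 ± 1.11 FPKM in shANXA2 and 17.7 ± 3.78 in shCtrl, a log2 fold change of 0.11 (SE 0.154). IFI44L (chr1:78619902-78646145) and IFI44 (chr1:78649796-78664078) lie 3650 bases apart on the plus strand. IFI44L had 281, 378 and 510 reads in shCtrl and 826, 734 and 1059 in shANXA2, a log2 fold change of 1.07 (SE 0.222). IFI44 had 88, 173 and 155 reads in shCtrl and 344, 292 and 373 in shANXA2, a log2 fold change of 1.19 (SE 0.221). The 2 estimates lay within 1 SE of each other, and in both genes every shANXA2 library lay above every control. In FPKM, IFI44 had 2.60 ± 0.525 and 5.91 ± 1.21 and IFI44L 2.12 ± 0.448 and 4.43 ± 1.29 in shCtrl and shANXA2. ISG20 (chr15:88635670-88656483, plus strand) had 23, 18 and 27 reads in shCtrl and 68, 69 and 94 in shANXA2. Its level was 0.347 ± 0.0850 FPKM in shCtrl and 1.07 ± 0.318 in shANXA2, a log2 fold change of 1.64 (SE 0.380), with no overlap. Its relatives AEN, which also neighbours ISG20, and ISG20L2 had log2 fold changes of 0.29 (SE 0.240) and 0.26 (SE 0.136), both with overlapping groups.

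**Figure D3:**
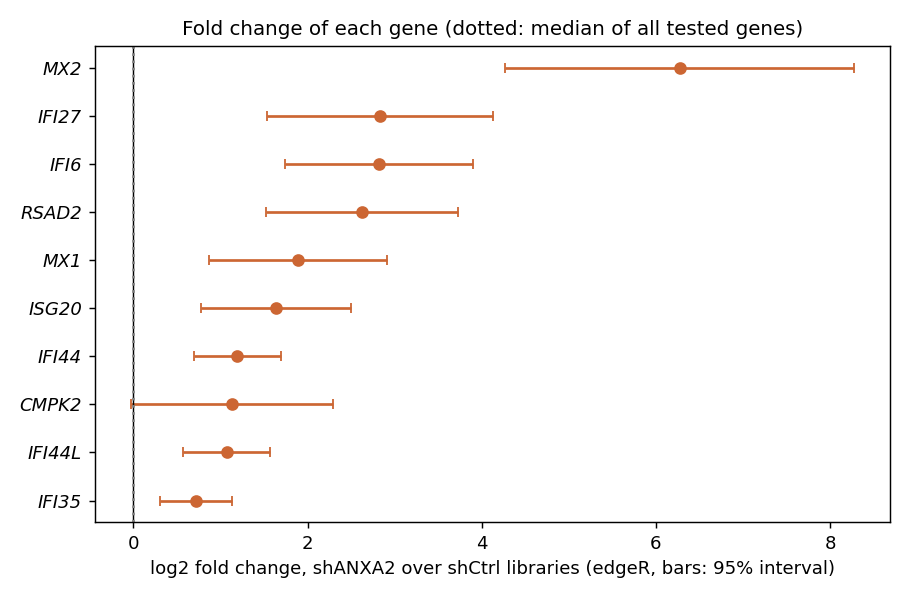
Log2 fold change, shANXA2 over shCtrl libraries, of the 10 genes from edgeR with 95% intervals as bars, and a dotted line at the median of all tested genes (-0.01). MX2 stands at 6.27, IFI35 at 0.71, and the interval of CMPK2 reaches -0.03.

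The order of the levels per length was compared in each group. In shCtrl, IFI6 and IFI35 were highest at 16.3 ± 5.19 and 10.24 ± 2.08 FPKM, and their ranges overlapped although IFI6 was above IFI35 in all 3 libraries. IFI44 and IFI44L followed, overlapping each other but clear of IFI35 above and IFI27 below. Among IFI27, ISG20, CMPK2 and MX1, each range overlapped the next. IFI27 nevertheless lay above CMPK2 and MX1 without overlap, and ISG20 lay above MX1. RSAD2 lay below MX1 and MX2 below RSAD2 without overlap. In shANXA2, IFI6 at 114.4 ± 82.2 FPKM was clear of IFI35, and IFI35 of IFI44, whereas from IFI44 down to MX2 every gene overlapped its neighbour. IFI6 alone made up 57.5%, 39.7% and 51.0% of the summed FPKM of the 10 genes in shCtrl replicates 1, 2 and 3, and 72.9%, 66.2% and 83.3% in shANXA2. Without IFI6 the summed FPKM was 13.59, 15.8 and 19.36 in shCtrl and 31.85, 25.7 and 41.65 in shANXA2, so the groups remained apart. A mean control level below 1 FPKM was found for 6 of the genes, MX1, MX2, RSAD2, CMPK2, IFI27 and ISG20.

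The shANXA2 libraries differed among themselves in a shared order. Replicate 3 was the highest of the 3 for 10 of the 10 genes, against 41% of all tested genes, and replicate 2 the lowest for 8, against 34.2%. CMPK2 and ISG20 had replicate 1 lowest. The ratio of the highest to the lowest shANXA2 library was over 3 for IFI6 (4.06), IFI27 (3.91), MX1 (3.24) and CMPK2 (3.20). It was 2.16 for RSAD2 and 2.12 for MX2, and 1.34 to 1.65 for IFI35, IFI44, ISG20 and IFI44L. The coefficient of variation of the depth-corrected levels was higher in shANXA2 than in shCtrl for 8 of the 10 genes. The same share over all tested genes was not counted. The coefficient was 71.1% against 32.4% for IFI6, 71.0% against 16.0% for IFI27 and 56.0% against 19.6% for MX1, but 19.7% against 19.4% for IFI44. For IFI35 it was lower in shANXA2, at 15.3% against 20.3%, and for MX2 at 41.0% against 173.2%, the latter resting on 1 control read. shANXA2 replicate 3 is also the library with the fewest detected genes in its group and the lowest mitochondrial share of the 6, and the part of these in the levels was not tested. Without it the log2 fold changes were 2.08 for IFI6, 2.10 for IFI27 and 1.38 for MX1. The median of the 10 genes was then 1.38, and without that library and control replicate 1 together it was 1.50, with 10 of 10 estimates higher. Without overlap in that smaller comparison were 9 of the 10 genes, against 24.5% of all genes tested in it. There edgeR's quasi-likelihood test called 6 genes after Benjamini-Hochberg adjustment, none of them among the 10.

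**Figure D4:**
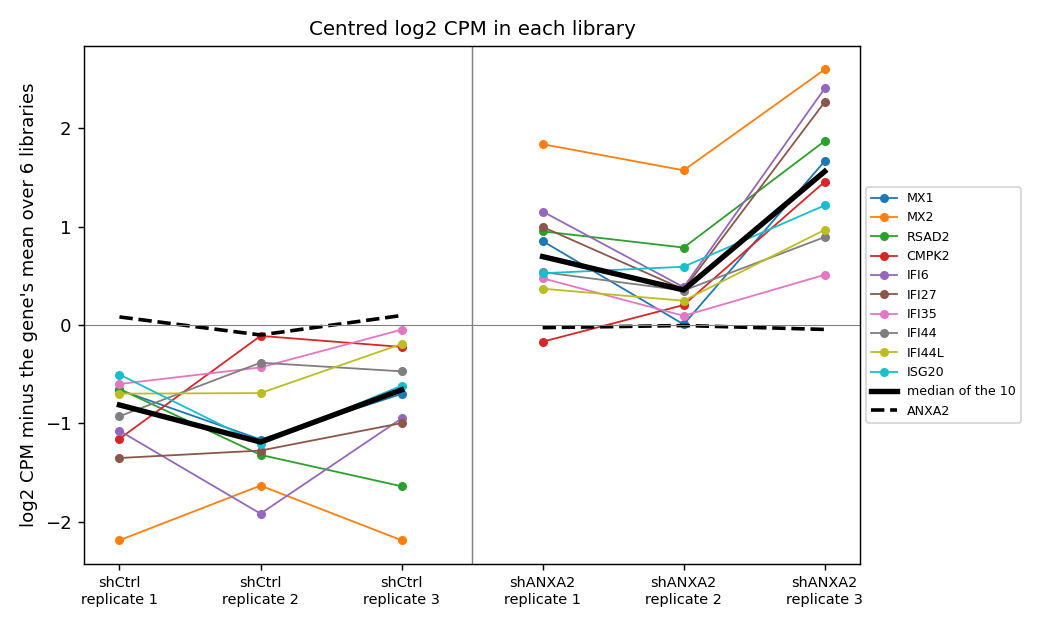
Log2 CPM of each gene minus its mean over the 6 libraries (vertical axis) in each library (horizontal axis), with the median of the 10 genes as a thick black line and ANXA2 dashed. Lines only join the points of 1 gene, since replicates have no order. All 10 genes peak in shANXA2 replicate 3, whereas ANXA2 stays near 0.

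In order to find the genes whose pattern was most like that of the 10, the root mean square difference between each gene's centred log2 CPM and the median profile of the 10 was computed over the 6 libraries, with a prior count of 2. Closest were ISG15 (0.160), a ubiquitin-like protein attached to other proteins, OAS1 (0.177), which makes the 2'-5' oligoadenylates that activate RNase L, and EPSTI1 (0.196). The protein-coding model ENSG00000259529 (0.214), at chr14:24147548-24166452 on the plus strand, and DHX58 (0.305), a helicase of the RIG-I family, followed. ENSG00000259529 shares exons with IRF9, PSME2 and RNF31. The log2 fold changes of the 5 were 1.58, 1.90, 1.79, 1.54 and 1.40 in that order. Of the 10 genes themselves, MX1 (0.175) and ISG20 (0.224) lay closest to the median profile and MX2 (1.18) farthest. When each profile was scaled to unit SD, ISG15 was the only 1 of the 5 that remained among the 5 closest. These values describe 6 libraries and carry no test.

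The rest of the interferon pathway was described from lists written with earlier results of these data known. Of 22 interferon genes 5 were listed and none had enough reads to be tested. Summed over 3 libraries, IFNB1 had 4 reads in shANXA2 and 0 in shCtrl, IFNL3 had 11 and 2, and IFNL4 had 8 and 21. At these counts no difference in the ligands was detectable. Of 11 tested receptors and JAK-STAT genes, 7 had higher estimates (median log2 fold change 0.12), where 49% of all tested genes did. Among them 2, IL10RB (0.28) and STAT2 (0.48), were higher without overlap, where 7.94% of all tested genes were. JAK1 had 57.7 ± 20.5 FPKM in shANXA2 and 63.1 ± 19.8 in shCtrl, and IFNLR1, the receptor chain for type III interferons, had the largest estimate of the list, 0.61 (SE 0.323). IRF9 had too few reads to be tested, at a mean of 0.020 FPKM in shANXA2, and shares exons with the model ENSG00000259529 named above. How reads from shared exons were counted is not stated, so the level of IRF9 cannot be judged from this value. None of these genes passed adjusted p 0.05 in edgeR's quasi-likelihood test or DESeq2, and 2 were higher below 0.05 before adjustment, where 3.86% of all genes were.

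All 5 IRF factors had estimates above 0 (median 0.11), where 49% of all tested genes did. Under the alternatives the count was 4 or 5. IRF7, the factor that amplifies interferon production, had 6.36 ± 1.51 FPKM in shANXA2 and 2.57 ± 1.23 in shCtrl, a log2 fold change of 1.33 (SE 0.341) with groups that did not overlap. It passed DESeq2 with a Benjamini-Hochberg adjusted p of 0.0139 but not edgeR. IRF5 (log2 fold change 0.25, SE 0.132) was also higher without overlap, where 7.94% of all tested genes were. IRF3, which is activated by phosphorylation, had a log2 fold change of 0.00 (SE 0.090) at 26.4 ± 0.831 and 26.6 ± 0.667 FPKM. Of 6 negative regulators 4 had higher estimates (median 0.13), where 49% of all tested genes did. The largest was that of USP18, the protease that removes ISG15 and restrains receptor signalling, at 3.80 ± 1.70 and 1.68 ± 0.388 FPKM (log2 fold change 1.19, SE 0.340, groups overlapping). Of 27 tested members of the other antiviral effectors, 25 had higher estimates (49% of all tested genes), 16 were higher without overlap (7.94% of all) and the median was 0.86. DESeq2 called 9 of them higher (0.17% of all) and edgeR's quasi-likelihood test none after adjustment, with 19 higher below unadjusted p 0.05 (3.86% of all). The largest estimates were OAS2 (5.52, SE 0.661) and OASL (2.50, SE 0.308). The most abundant were BST2 (192.9 ± 21.4 and 136.2 ± 9.86 FPKM), which tethers budding virus to the cell surface, and LGALS3BP (129.8 ± 9.31 and 106.1 ± 6.44). HERC5 (-0.21) and TRIM5 (-0.09) had estimates below 0.

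**Figure D5:**
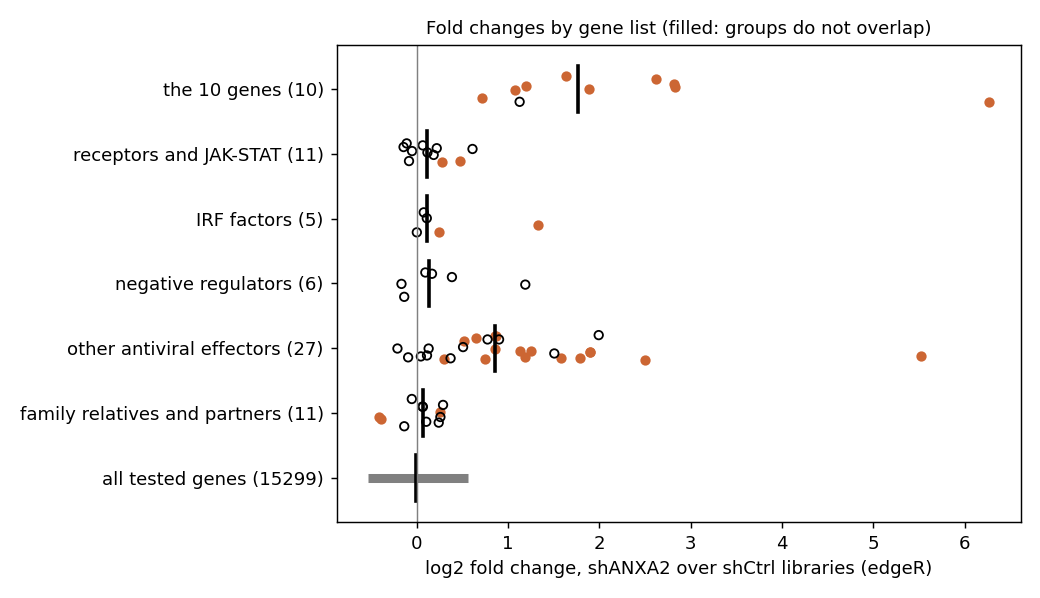
Log2 fold change of each tested gene (edgeR, shANXA2 over shCtrl) by list, with the number of genes in brackets, filled points where the groups do not overlap, open points where they do, and black ticks at medians. The grey bar spans the 5th to 95th percentile of all tested genes, from -0.54 to 0.56. The medians are 1.76 for the 10 genes, 0.86 for the other effectors and 0.07 for the relatives and partners.

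The 11 tested relatives and partners of the 10 proteins had a median log2 fold change of 0.07, with 7 estimates above 0 (49% of all tested genes). None was 1 or more, and none passed adjusted p 0.05 in edgeR's quasi-likelihood test or DESeq2. Before adjustment 1 was below 0.05 in the higher and 2 in the lower direction, where 3.86% and 4.32% of all tested genes were. Their most abundant members were DNM2, at 55.7 ± 3.75 FPKM in shANXA2 and 53.8 ± 6.98 in shCtrl, and CIAO1, an iron-sulphur assembly protein, at 32.8 ± 3.73 and 36.4 ± 0.674. DNM1L, the dynamin of mitochondrial fission, was estimated lower (-0.41, SE 0.142) without overlap. The chromosomal neighbours were examined likewise, as the nearest tested gene on each side of their 7 loci, a set chosen after values were seen. Of these 14 genes 9 had estimates above 0, where 49% of all tested genes did. Their median was 0.05 and the range -0.91 to 0.29. None reached a log2 fold change of 1, including VAT1, which lies 150 bases from IFI35 (0.26), and IFI27L1, 989 bases from IFI27. Without overlap, 2 were higher (BACE2 and VAT1) and 1 lower (RIPK4), where 7.94% and 7.7% of all tested genes were.

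Markers of other cell types were measured in the same libraries. Of 10 leukocyte markers 4 were listed, and their summed FPKM was 1.42 to 2.40 in shCtrl and 1.81 to 3.18 in shANXA2, with 2 of them (LYZ and ITGAM) below 1 FPKM in every library and PTPRC, which defines leukocytes, not listed. For plasmacytoid dendritic cells, known for high interferon output, 2 of 4 markers were listed (CLEC4C and TCF4), and their sum was 0.17 to 0.22 and 0.11 to 0.23. The 3 listed of 5 endothelial markers summed to 0 to 0.04 and 0 to 0.07, and the 5 listed of 7 fibroblast markers to 8.42 to 10.03 and 7.87 to 8.79. The ranges of the groups overlapped in each of these lists, and the part of such cells in the levels of the 10 genes was not tested.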

How the data were processed

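The 6 libraries of HK-2 cells were 3 labelled shCtrl and 3 labelled shANXA2. Per the labels, poly(A) RNA was selected and directional libraries were made. The submitters' processing notes name bcl2fastq, TopHat2, edgeR and the build GRCh38. For the counting program, annotation release and strand setting, nothing is given in the sources used here. The authors deposited unnormalised read counts for 26899 genes and FPKM values, scaled by them for transcript length and depth, for 26803 genes. The authors rounded FPKM to 2 decimals, which limits the precision of the lowest levels. The 10 genes, the gene lists and the tests were chosen with earlier results of these data known.

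The counts were fitted in edgeR 4.0.16 (R 4.3.3; glmQLFit and glmQLFTest, the quasi-likelihood test) with TMM scaling and the default low-count filter (minimum count 10, minimum total 15), in 1 model of all 6 libraries without covariates. All p-values are two-sided, and adjusted ones used the Benjamini-Hochberg method with a threshold of 0.05. The adjustment ran over all 15299 tested genes in the main fit and in limma-voom. In DESeq2 it ran over 16467 genes after that program's own filtering, and in each other alternative over the genes it tested. Overlap of groups was judged on TMM-scaled CPM. Intervals are 95%. The alternatives were other scalings, no filter, DESeq2 1.42.0, limma 3.58.1 (voom, and trend on log2 FPKM with pseudocounts of 0.1 and 1), the replicate number as a block, and each library left out. The procedure was tested on simulated data.

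Named genes were the 10 genes, ANXA2, from each list the genes a count turned on, the 2 most abundant and the 2 with the largest change, and the 5 most alike genes, except that 1 result this rule would name is not reported here. Chromosome positions are from GENCODE release 44 on GRCh38, in which 97.1% of the gene identifiers were found. Promoter sequences are from RefSeq. Identities between the proteins were not computed here. Replicates within a group differed well beyond sampling (chi-square per degree of freedom 7.34 to 37.9), so each counted as 1 sample.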

Additional observations from a re-analysis of the deposited data

How the results depend on the processing

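All 10 genes had estimates above 0 under all 17 alternatives, and 9 or 10 of them had groups without overlap. The share of all genes higher without overlap was 4.83% to 8.28% with 6 libraries, 10.2% to 16% with 5 and 24.5% with 4. Overlap was not a separate check in each alternative, since several used the same scaled values. Leaving out a library also keeps separated groups apart unless the scaling shifts. ANXA2 ranged from -0.11 to -0.01 on the log2 scale. The number of genes past adjusted p 0.05, 0 in edgeR, was 165 without the low-count filter (9 of the 10 genes among them, all but CMPK2), 31 in DESeq2 and 0 to 4 when 1 library was left out, the 4 without shANXA2 replicate 2. It was 6 without control replicate 1 and shANXA2 replicate 3 together, an alternative chosen after seeing the data. The causes were not tested. The median of the 10 genes fell to 0.63 on the log2(FPKM + 1) scale, on which low genes are compressed by construction (MX2 0.44, MX1 0.53), and lay between 1.38 and 1.98 when 1 library was left out. The estimate of MX2 moved from 5.80 to 8.16 in those fits, the highest without control replicate 2, which held its only control read. IFI27 was 2.10 without shANXA2 replicate 3. With profiles scaled to unit SD, 1 of the 5 most alike genes was shared. No pairing of the samples by replicate number was seen. Correlations of deviations between same-numbered libraries were -0.06, 0.12 and -0.20, and not every library was closest to its own number. Deviations within a group of 3 libraries sum to 0, so these correlations depend on each other and cannot exclude a pairing. With the replicate block edgeR also called 0 genes (1076 below unadjusted p 0.05, against 1251), the median of the 10 genes was 1.70 and no call changed. With 3 libraries a group and at most 41 reads in any control library for 6 of the genes, precision was limited.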
